A study of Homo sapiens with 6 samples.

Results

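The genes described here encode the apical polarity proteins and junction scaffolds MPDZ, CGN, PARD3, PARD6B, CRB3, TJP1, TJP3, MAGI1 and MAGI3, measured on oligonucleotide arrays of Caco-2 cells after silencing of SDC1. They were taken by gene symbol, using probe sets that the platform annotation assigns to exactly 1 gene, and each probe set was kept separate. This gave 19 probe sets of 8 genes, out of 41091 such probe sets of 19775 genes in the series. No probe set met the rule for MAGI1, which was not analysed here. The set was drawn up because earlier results of this same comparison had placed MPDZ and CGN among the lower genes, so the differences of its members are given as a description. Counts of calls from fits over all probe sets or genes include the members, and a member's call there is no independent test of it.

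Caco-2 is a human colorectal adenocarcinoma line that polarises in culture into an enterocyte-like sheet. The 3 arrays of the silenced group came from cells given a small interfering RNA (siRNA) that targets SDC1, and the 3 arrays of the control group from cells given a negative control siRNA, so both groups were transfected. SDC1 encodes syndecan-1, a transmembrane heparan sulfate proteoglycan of epithelia. The sources used here name neither the siRNA sequence nor its dose or the time of collection. The replicates are described as independent without stating whether each was its own culture. The p-values therefore reflect the scatter of these arrays alone, and that scatter may be technical.

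Epithelial cells keep their apical and basolateral membranes apart with protein assemblies at the tight junction. The Crumbs complex (CRB3, PALS1, PATJ) and the PAR complex (PARD3, PARD6 and atypical protein kinase C) mark the apical side, and the Scribble group marks the basolateral side. Many of these proteins are built from PDZ domains, modules that bind the carboxy-terminal tails of membrane proteins. MPDZ, also called MUPP1, is a string of such domains that binds claudins, JAM-A and CAR, and is the paralogue of PATJ. Syndecans end in a PDZ-binding tail of their own, which is bound by syntenin, CASK and GIPC1. Of the members, CGN and CRB3 have no PDZ domain. CGN, cingulin, is a coiled-coil protein that binds ZO-1, and CRB3 is a small membrane protein whose tail is bound by PALS1 and PARD6, so the name PDZ scaffold holds for MPDZ, PARD3, PARD6B, TJP1, TJP3 and MAGI3.

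Promoter sequences are shown for the 2 genes with the largest differences, MPDZ and CGN, and for CRB3, which showed the smallest. They come from RefSeq (GRCh38.p14) and run from 250 bases before to 50 bases after an annotated transcript start, 5′ to 3′ on the gene's strand. The windows are chr9:13279643-13279942 (minus strand) for MPDZ, chr1:151511137-151511436 (plus strand) for CGN and chr19:6464021-6464320 (plus strand) for CRB3. Capitals mark CAGGTG, an E-box that Snail-type repressors bind, and GGGCGG, the GC box that Sp1 binds, each searched on both strands (CACCTG and CCGCCC on the strand shown).
MPDZ: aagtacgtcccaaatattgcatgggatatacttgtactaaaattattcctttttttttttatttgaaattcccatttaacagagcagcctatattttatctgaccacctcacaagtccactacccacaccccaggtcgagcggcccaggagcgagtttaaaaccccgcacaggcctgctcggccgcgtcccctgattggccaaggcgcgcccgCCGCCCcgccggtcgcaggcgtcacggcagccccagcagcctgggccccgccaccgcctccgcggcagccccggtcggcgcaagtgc
CGN: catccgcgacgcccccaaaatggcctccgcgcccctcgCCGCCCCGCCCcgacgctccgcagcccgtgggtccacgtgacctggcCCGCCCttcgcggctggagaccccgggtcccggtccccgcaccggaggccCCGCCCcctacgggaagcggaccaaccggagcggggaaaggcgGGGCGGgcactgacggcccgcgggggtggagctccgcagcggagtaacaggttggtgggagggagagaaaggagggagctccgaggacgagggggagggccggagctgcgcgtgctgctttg
CRB3: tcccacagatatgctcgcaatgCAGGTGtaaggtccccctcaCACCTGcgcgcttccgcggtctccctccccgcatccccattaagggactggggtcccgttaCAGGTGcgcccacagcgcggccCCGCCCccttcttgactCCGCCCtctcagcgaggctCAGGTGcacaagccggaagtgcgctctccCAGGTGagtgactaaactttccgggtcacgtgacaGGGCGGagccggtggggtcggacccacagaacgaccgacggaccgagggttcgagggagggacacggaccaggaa
The MPDZ and CGN windows held no CAGGTG. The CRB3 window held 5, beginning 228, 208, 147, 89 and 60 bases before the start. Among 35116 RefSeq promoters of the same length, 20.6% held at least 1. GGGCGG, which 45% of these promoters held, stood once in the MPDZ window, 5 times in the CGN window (1 pair shared 1 base) and 3 times in the CRB3 window. No GC box overlapped a CAGGTG in these 3 windows. The table held 10 windows for 6 of the 8 measured members, and CAGGTG stood in 3 of them, 1 each of CRB3, TJP1 and TJP3. PARD3 and PARD6B had no entry. These matches describe letters in a window and not binding.

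Each value was a log2 signal from which the probe set's own median over the 6 arrays had been taken away. Arrays can be compared within a probe set, while levels are lost, and no gene's level could be set against another's. A rough brightness class was read from the spacing of the stored numbers. It placed 4 of the 19 member probe sets at a log2 signal of 8 to 16, 15 at 4 to 8 and 0 below 4, the dimmest class. Of 7 markers of colon epithelium, CDH1, EPCAM, KRT8 and KRT18 had a probe set in the brightest class. Among the others, VIL1, CDX2 and KRT20, 2 had their brightest probe set at 4 to 8 and 1 below 4. Of 3 leukocyte markers 2 were measured, with 0 in the brightest class, while COL1A1 among 5 fibroblast markers and VWF among 3 endothelial markers reached it. The remaining 4 fibroblast and 2 endothelial markers were at 4 to 8, and of the leukocyte markers 1 was at 4 to 8 and 1 below 4. The differences ran from -0.14 to 0.29 for the epithelial probe sets, from -0.62 to 0.29 for the fibroblast ones, from -0.06 to 0.37 for the endothelial ones and from -0.13 to 0.22 for the leukocyte ones. None of these marker probe sets passed, and their part in the results was not tested. With 3 arrays a group, the precision of each value is limited.

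The target of the siRNA was lower in the arrays labelled as silenced. SDC1 probe set 201287_s_at had relative log2 signals of -0.51, -0.62 and -0.34 with SDC1 siRNA and 0.38, 0.34 and 0.36 with control siRNA. The difference was -0.85 ± 0.09 (log2, standard error, n = 3 each), a 1.81-fold reduction, and the limma adjusted p was 0.121 among single probe sets. The other probe set, 201286_at, differed by -0.83 ± 0.09 (limma adjusted p = 0.121). In bulk RNA, fewer cells carrying a transcript and less transcript per cell cannot be told apart.

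All 3 SDC1 siRNA arrays lay below all 3 control arrays for MPDZ, by both of its probe sets. Probe set 205079_s_at had relative log2 signals of -0.29, -0.36 and -0.41 with SDC1 siRNA, against 0.33, 0.29 and 0.35 with control siRNA. Probe set 213306_at had -0.41, -0.54 and -0.30 with SDC1 siRNA, against 0.30, 0.34 and 0.41 with control siRNA. The lowest control array lay above the highest SDC1 siRNA array by 0.575 and 0.609 log2 units in these probe sets. The differences were -0.67 ± 0.08 (standard error, 95% interval -0.85 to -0.49) for 205079_s_at and -0.77 ± 0.09 (-0.98 to -0.56) for 213306_at. As ratios these are reductions of 1.59-fold and 1.71-fold. By absolute size they stood 30th and 13th of 54613 probe sets, where the SDC1 probe sets stood 7th and 8th.

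**Figure D1:**
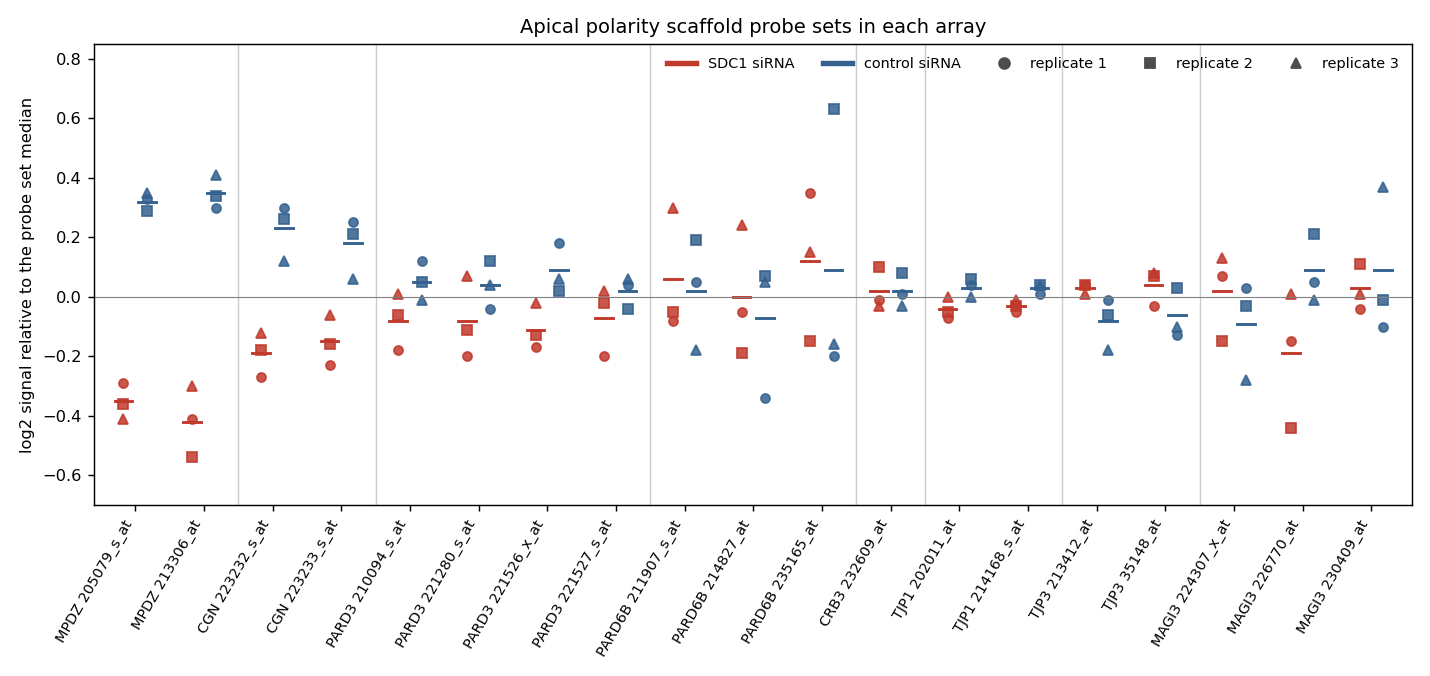
Relative log2 signal (y axis) of each of the 19 member probe sets (x axis, grouped by gene) in the 3 SDC1 siRNA arrays (red, left) and the 3 control siRNA arrays (blue, right), with marker shapes for replicate numbers and short lines for group means. Both MPDZ and both CGN probe sets have all red points below all blue points, while the 3 PARD6B probe sets scatter widely within both groups.

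The 2 MPDZ probe sets followed each other over the arrays, with r = 0.97 over 6 arrays and a largest gap of 0.19. The arrays share the group difference, which by itself gives a high r. Within the groups the pooled SD was 0.047 for 205079_s_at, at percentile 5.1 of all probe sets, and 0.092 for 213306_at, at percentile 27.1, where the median over all probe sets was 0.13. The MPDZ arrays of each group were therefore close together, and the larger scatter of 213306_at came with SDC1 siRNA (SD 0.12) more than with control siRNA (SD 0.05).

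CGN separated the arrays in the same direction, with a smaller difference than MPDZ. Probe set 223232_s_at had relative log2 signals of -0.27, -0.18 and -0.12 with SDC1 siRNA, against 0.30, 0.26 and 0.12 with control siRNA. Probe set 223233_s_at had -0.23, -0.16 and -0.06 with SDC1 siRNA, against 0.25, 0.21 and 0.06 with control siRNA. The nearest arrays of the 2 groups were the replicates numbered 3 in both probe sets, 0.244 and 0.127 apart. The differences were -0.42 ± 0.09 (95% interval -0.62 to -0.22) and -0.33 ± 0.09 (-0.53 to -0.12), or reductions of 1.34-fold and 1.25-fold. The probe sets agreed closely over the 6 arrays (r = 0.99, largest gap 0.06). As for MPDZ, the shared group difference by itself gives a high r. Both are of the _s_at type, which can match several transcripts, as are MPDZ 205079_s_at and the other probe sets with that ending.

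The ZO proteins, which bind claudins and occludin and tie them to actin, differed by small amounts. For TJP1, which encodes ZO-1, the differences were -0.07 ± 0.08 (95% interval -0.25 to 0.10) for 202011_at and -0.06 ± 0.08 (-0.24 to 0.11) for 214168_s_at. These probe sets had some of the smallest scatter within groups in the whole table, with pooled SDs of 0.033 (percentile 1.8) and 0.018 (percentile 0.3). The groups of 214168_s_at did not overlap, with -0.05, -0.03 and -0.01 in SDC1 siRNA arrays and 0.01, 0.04 and 0.04 in control arrays, although the step between them was only 0.028. In 202011_at SDC1 siRNA replicate 3 and control replicate 3 both lay at 0.00 and the groups overlapped. The moderated standard error exceeds what this scatter alone would give, because limma draws each variance toward that of all probe sets.

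TJP3, which encodes ZO-3, lay on the other side of 0. Probe set 213412_at had 0.04, 0.04 and 0.01 with SDC1 siRNA and -0.01, -0.06 and -0.18 with control siRNA, a difference of 0.11 ± 0.08 (95% interval -0.08 to 0.30). Its groups were apart by 0.012, the only member probe set higher in every SDC1 siRNA array, and the difference was 0.06 without control replicate 3. Probe set 35148_at differed by 0.10 ± 0.09 (-0.09 to 0.30) with overlapping groups. The intervals for TJP1 and TJP3 all covered 0 and do not show whether these 2 genes differ from each other.

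**Figure D2:**
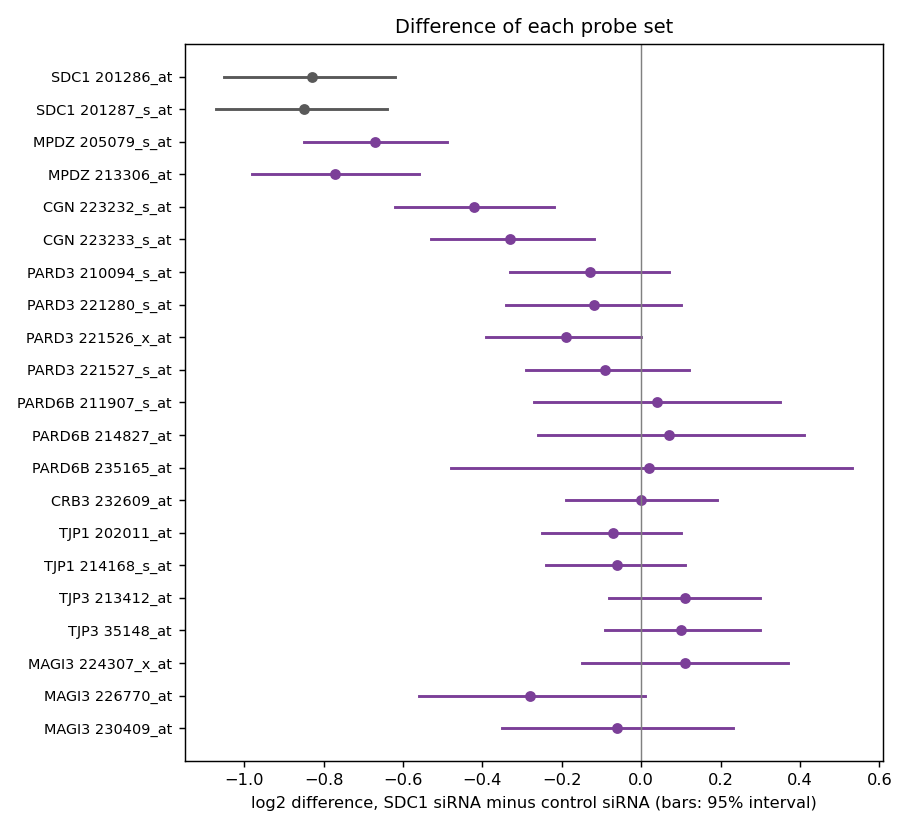
Log2 difference, SDC1 siRNA minus control siRNA (x axis), with its 95% interval from the limma fit, for the 2 SDC1 probe sets (grey) and the 19 member probe sets (purple) down the y axis. The intervals of the 2 MPDZ and 2 CGN probe sets lie below 0, and those of the other 15 cover it.

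PARD3, the scaffold that brings PARD6 and atypical protein kinase C to the junction, had 4 probe sets, all with a mean below 0. The differences were -0.13 ± 0.09 (210094_s_at), -0.12 ± 0.10 (221280_s_at), -0.19 ± 0.09 (221526_x_at) and -0.09 ± 0.09 (221527_s_at). Probe set 221526_x_at had -0.17, -0.13 and -0.02 with SDC1 siRNA, against 0.18, 0.02 and 0.06 with control siRNA, and its groups were apart by 0.050. The groups of the other 3 overlapped. SDC1 siRNA replicate 1 was the lowest of the 6 arrays in all 4 probe sets, between -0.20 and -0.17, and SDC1 siRNA replicate 3 lay between -0.02 and 0.07. Without SDC1 siRNA replicate 1 the differences were -0.08 (210094_s_at), -0.06 (221280_s_at), -0.16 (221526_x_at) and -0.02 (221527_s_at). Without SDC1 siRNA replicate 3 that of 221280_s_at was -0.20, and without control replicate 2 it was -0.08. The 4 probe sets share the gene and partly the same transcripts and are no replicates of the comparison.

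PARD6B, the adaptor between PARD3, CDC42 and atypical protein kinase C, showed no difference that could be resolved. The differences were 0.04 ± 0.13 (211907_s_at), 0.07 ± 0.15 (214827_at) and 0.02 ± 0.22 (235165_at), with 95% intervals as wide as -0.48 to 0.53. The brightest of the 3, 235165_at, had 0.35, -0.15 and 0.15 with SDC1 siRNA and -0.20, 0.63 and -0.16 with control siRNA. Its pooled SD of 0.376 was at percentile 98.9 of all probe sets, and control replicate 2 was the highest array. The difference was 0.30 without control replicate 2 and -0.12 without control replicate 1. The 3 probe sets agreed weakly over the arrays, with r from 0.44 to 0.52 over 6 arrays.

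CRB3, the Crumbs protein of most epithelia, had 1 probe set with the same mean in both groups. Its relative log2 signals were -0.01, 0.10 and -0.03 with SDC1 siRNA, against 0.01, 0.08 and -0.03 with control siRNA. The difference was 0.00 ± 0.08 with a 95% interval from -0.19 to 0.19, so a change of up to 0.19 in either direction lies within the interval.

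MAGI3, an inverted membrane-associated guanylate kinase, gave values that depended on the probe set. Probe set 226770_at had -0.15, -0.44 and 0.01 with SDC1 siRNA and 0.05, 0.21 and -0.01 with control siRNA, a difference of -0.28 ± 0.13 (95% interval -0.56 to 0.01) with overlapping groups. It was -0.15 without SDC1 siRNA replicate 2, the lowest array. Probe set 224307_x_at differed by 0.11 ± 0.11 (0.02 to 0.19 without 1 array) and 230409_at by -0.06 ± 0.13 (-0.16 to 0.08 without 1 array). The last 2 ran opposite ways over the arrays (r = -0.87 over 6 arrays, largest gap 0.65), and control replicate 3 was the lowest array in 224307_x_at (-0.28) and the highest in 230409_at (0.37). No single value for the gene can be read from these probe sets.

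As a set, 12 of the 19 member probe sets had a difference below 0 and 7 above, with a median of -0.07, where all 54613 probe sets had a median of 0.00 and 49.8% lay below 0. The groups did not overlap in 6 member probe sets that were lower (2 of MPDZ, 2 of CGN, 1 of PARD3, 1 of TJP1), where 7.42% of all probe sets were lower in this way. They did not overlap in 1 that was higher, of TJP3, where 7.06% of all were higher in this way. In limma's test of single probe sets 0 of 54613 passed an adjusted p of 0.05 (0%), with a lowest adjusted p of 0.0502, and 4547 had an unadjusted p under 0.05 (8.33%). Of the members 0 passed, and 4, the MPDZ and CGN probe sets, had an unadjusted p under 0.05 and were lower, as were 4.15% of all probe sets. Since the members were chosen with this comparison known, these counts describe them and no more. An absolute difference under 0.2 was found in 14 of the 19, and in 84.3% of all probe sets.

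**Figure D3:**
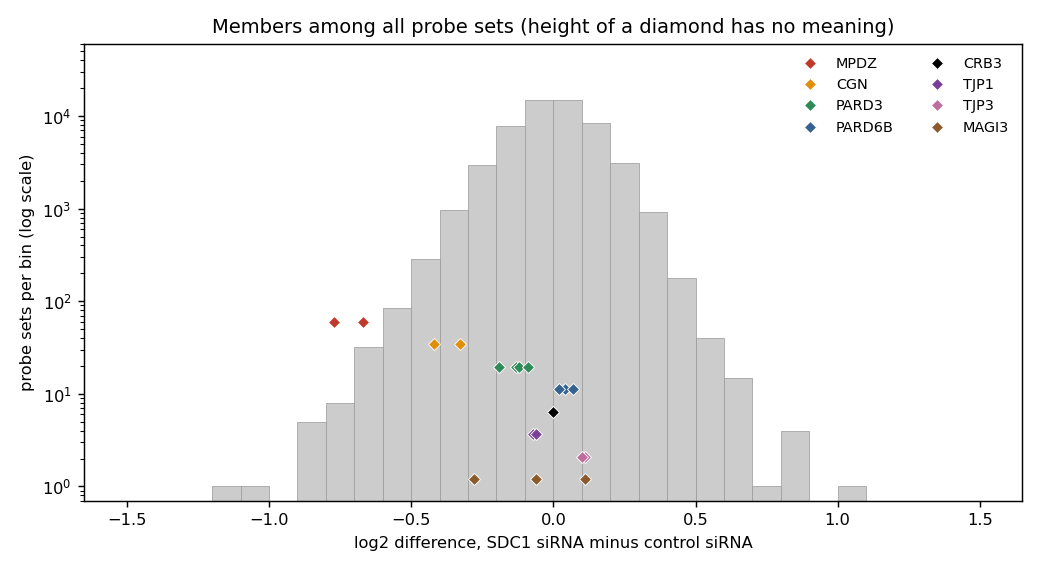
Number of probe sets (log-scaled y axis, grey bars) by log2 difference, SDC1 siRNA minus control siRNA (x axis), for all 54613 probe sets, with the 19 member probe sets as diamonds coloured by gene. The MPDZ diamonds, at -0.67 and -0.77, lie in the lower tail, and 14 of the 19 diamonds lie within 0.2 of 0.

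After the probe sets of each gene were averaged, 3 of 19775 genes passed in limma with Benjamini-Hochberg adjustment (0.0152%), of which 2 were lower (0.0101%). The 3 were MPDZ, SDC1 and LGSN. MPDZ had been chosen from these same arrays, so its place in the count is no test of it. Its average difference was -0.72 ± 0.07 (a 1.65-fold reduction), and lay between -0.74 and -0.69 without any 1 of the 6 arrays. MPDZ was not among the genes that passed in any of those 6 fits, in which 0 to 2 genes passed, and after repeated quantile normalization LGSN alone passed. CGN was at -0.37 ± 0.08 by this average and PARD3 at -0.13 ± 0.07. PARD6B was at 0.05 ± 0.13, TJP1 at -0.07 ± 0.06, TJP3 at 0.11 ± 0.07 and MAGI3 at -0.08 ± 0.07. The average for MAGI3 hides probe sets of opposite sign.

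Probe sets most like MPDZ were found by the root mean square difference from the mean of the MPDZ probe sets over the 6 arrays. The search covered 41072 probe sets of genes outside the members. Each gene stands by its nearest probe set, and its other probe sets are not given. The 5 nearest were ZNRF1, an E3 ubiquitin ligase (0.084), CSNK1A1, the kinase CK1 alpha (0.085), ERBB4, a receptor tyrosine kinase (0.089), ARHGAP28, a GTPase-activating protein (0.091), and C5, a complement component (0.093). The 2 MPDZ probe sets differed from each other by 0.106 on this measure. The nearest probe sets had differences of -0.63 ± 0.09 for ZNRF1, -0.61 ± 0.08 for CSNK1A1, -0.63 ± 0.10 for ERBB4, -0.59 ± 0.09 for ARHGAP28 and -0.69 ± 0.09 for C5, and in each the 3 SDC1 siRNA arrays lay below the 3 control arrays. The measure picks genes by the same group difference, so this likeness is a description of size and shape over 6 arrays.

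The other genes of the polarity system were read from 7 lists with 54 genes, of which 49 had 135 probe sets in the fit. Of these probe sets 0 passed an adjusted p of 0.05 in limma in either direction, 13 had an unadjusted p under 0.05 (6 higher and 7 lower, 9.63%, beside 8.33% of all probe sets), while 65 differences were positive and 70 negative (median -0.01). None of the genes named from these lists passed. The values after ± are standard errors, and a gene stands by its probe set of lowest p unless another is named.

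In the Crumbs complex list, which holds the direct partners of CRB3 and the paralogue of MPDZ, 5 of 24 probe sets had an unadjusted p under 0.05, 1 higher and 4 lower, and the median was -0.03. PALS1, the adaptor that joins Crumbs proteins to PATJ, had relative log2 signals of -0.21, -0.21 and -0.04 with SDC1 siRNA and 0.04, 0.40 and 0.35 with control siRNA in 219321_at. The groups of this probe set, picked by its lowest p, were apart by 0.088, where 7.42% of all probe sets were lower without overlap. The difference was -0.42 ± 0.11 (limma adjusted p = 0.438). It was -0.53 without control replicate 1 and -0.35 without control replicate 2. The other PALS1 probe set was at -0.25 (limma adjusted p = 0.527). LIN7B, a PDZ protein that binds PALS1, was at -0.29 ± 0.09 in 241957_x_at (limma adjusted p = 0.471) and at -0.03 in its other probe set. PATJ, which like MPDZ binds PALS1, ran from -0.17 to 0.12 over 6 probe sets, none with an unadjusted p under 0.05.

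In the list of the PAR complex and atypical protein kinase C, 3 of 20 probe sets had an unadjusted p under 0.05. This was 15%, beside 8.33% of all probe sets. All 3 were higher and belonged to PARD6G and PARD6A, and the list median was 0.03. PARD6G, a paralogue of PARD6B, had 0.15, 0.08 and 0.15 with SDC1 siRNA against -0.21, -0.33 and -0.08 with control siRNA in 227204_at, a difference of 0.33 ± 0.09 (limma adjusted p = 0.439). Its other probe sets were at 0.24 and 0.11. PARD6A, the third PARD6 gene, was at 0.23 ± 0.09 (limma adjusted p = 0.541), with 0.13, 0.06 and 0.08 in SDC1 siRNA arrays and -0.10, -0.25 and -0.06 in control arrays. The groups did not overlap in PARD6G 227204_at, picked by its lowest p, or in the PARD6A probe set, where 7.06% of all probe sets were higher in this way. The 3 PARD6B probe sets lay between 0.02 and 0.07 with overlapping groups, and the difference between the paralogues was not tested. The kinase genes PRKCI and PRKCZ lay between -0.11 and 0.03.

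**Figure D4:**
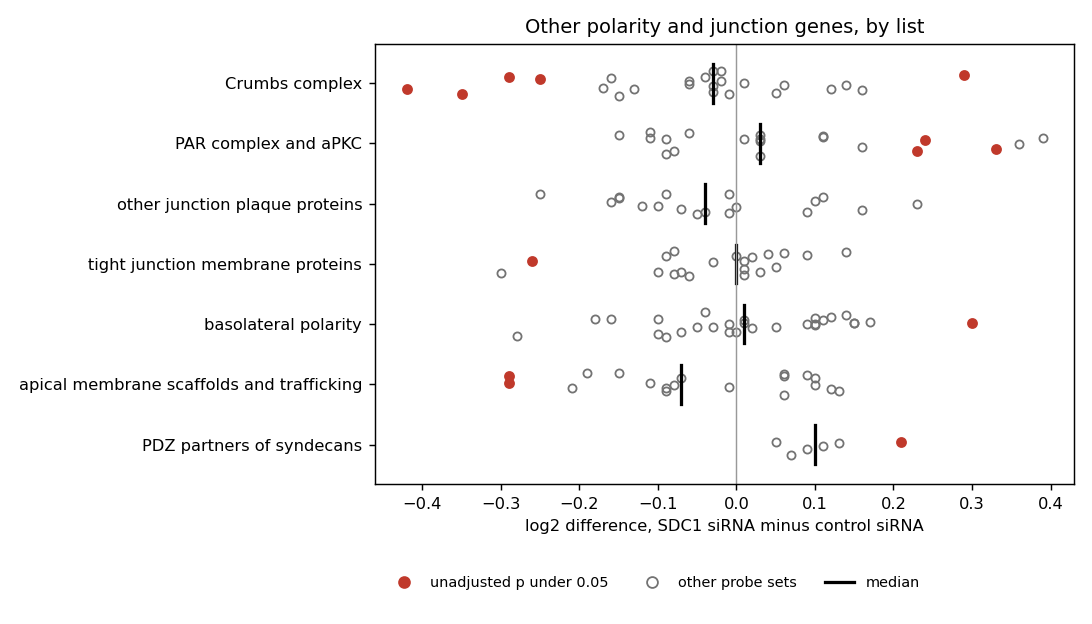
Log2 difference, SDC1 siRNA minus control siRNA (x axis), of the 135 probe sets in 7 lists of other polarity and junction genes (rows), with red points for an unadjusted p under 0.05, open points for the rest and black bars for list medians. List medians run from -0.07 to 0.10, and 0 of these probe sets passed the adjusted threshold.

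The remaining lists held few probe sets that stood out. Among 18 probe sets of other junction plaque proteins 0 had an unadjusted p under 0.05, with AFDN, afadin, at 0.23 ± 0.11 in 238871_at and from -0.25 to 0.23 over its 7 probe sets. SYMPK, symplekin, was at 0.16 ± 0.11 in 1559587_at and from -0.16 to 0.16 over its 4 probe sets. AFDN 238871_at and SYMPK 1559587_at were both of the dimmest class. The AFDN probe set was at 0.12 without control replicate 1. The SYMPK probe set was at 0.09 without SDC1 siRNA replicate 2 and 0.10 without control replicate 2. Among 20 probe sets of tight junction membrane proteins 1 had, JAM2 229127_at at -0.26 ± 0.10 (limma adjusted p = 0.564). This probe set was of the dimmest class, its groups overlapped, and it was at -0.19 without control replicate 1. The other JAM2 probe set was at 0.14. IGSF5 was at -0.30 ± 0.15, or -0.16 without control replicate 3. Among 28 probe sets of basolateral polarity genes 1 had, DLG1 at 0.30 ± 0.11 (limma adjusted p = 0.524), again of the dimmest class, with the 7 DLG1 probe sets running from -0.18 to 0.30. DLG1 229703_at was at 0.20 without control replicate 2. DLG2 was at -0.28 ± 0.14, or -0.44 without SDC1 siRNA replicate 3.

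Among 19 probe sets of apical scaffolds and trafficking genes 2 had an unadjusted p under 0.05 (10.5%, beside 8.33% of all), both lower. They belonged to RAB11A, a GTPase of recycling endosomes (-0.29 ± 0.11, limma adjusted p = 0.545), and MYO5B, the myosin motor that RAB11A recruits (-0.29 ± 0.11, limma adjusted p = 0.55). Each gene had 3 probe sets, which ran from -0.29 to 0.06. Of 4 listed genes for PDZ proteins that bind syndecan tails, 2 were measured, CASK with 5 probe sets and SDCBP with 1. These 6 probe sets were all above 0, with a median of 0.10, where 49.8% of all probe sets lay below 0. The 5 of CASK are of 1 gene and are no replicates of the comparison. CASK, a scaffold that also binds LIN7 proteins, was at 0.21 ± 0.09 in 227156_at (limma adjusted p = 0.582) and between 0.05 and 0.13 in its other 4 probe sets. SDCBP, syntenin, was at 0.11 ± 0.09, which became 0.05 without control replicate 3 and 0.17 without control replicate 2. Neither passed.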

How the data were processed

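Per the labels' protocols, total RNA of 6 Caco-2 samples was turned into biotinylated cRNA for Affymetrix arrays. The submitters' processing notes name RMA as the method behind the deposited log2 values, with no version. RMA corrects background, normalises by quantiles and summarises probes. In the deposited table every one of the 54675 probe sets had a median of 0 across arrays (tolerance 1e-06), so levels are lost, no filter on level was possible, and the intensity trend was not run.

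Names came from the platform annotation (41091 probe sets with 1 symbol, 1801 with several, 11721 with none), and 99.9% of the first matched the RefSeq gene table by Entrez identifier. The 62 control probe sets were left out. Groups were compared by limma 3.58.1 (R 4.3.3, lmFit and eBayes, group only), Benjamini-Hochberg adjusted over all 54613 probe sets, threshold 0.05. Array pairs differed by a median of 0.108 to 0.165. Same-numbered arrays did not deviate together (r = 0.06, -0.19 and 0.06), and no batch is given.

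Members and lists were chosen with earlier results of these data known, and 1 list is not reported here. The text names all members, SDC1, the 2 genes of lowest p per list and the 5 nearest to MPDZ. LGSN, the other probe sets of listed genes and the LIN7A, PATJ, PRKCI and PRKCZ values were added after their values were seen.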

Additional observations from a re-analysis of the deposited data

How the results depend on the processing

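The 19 member differences were recomputed under 12 or 13 settings each. The replicate block, the robust fit and the removal of other probe sets leave a difference unchanged. Leaving out 1 of 3 arrays cannot move it by more than the spread within groups. Only the scalings and array weights could have done so, and 0 of 237 values moved that far, a count mostly fixed in advance. The sign held in every setting run for 14 probe sets, those of MPDZ, CGN, PARD3, TJP1 and TJP3 and 2 of MAGI3. Leaving out an array cannot turn it where the groups do not overlap, as for MPDZ and CGN. It turned in at least 1 setting for the 3 PARD6B probe sets, CRB3 and MAGI3 230409_at, whose values with the other sign were at most 0.12 in size. The member probe sets past an adjusted p of 0.05 remained 0 under every setting run on all probe sets. Among all probe sets the count was 0 in the main fit, 3 with array weights (0.56 for control replicate 2, 1.49 for control replicate 1), 2 without the dimmest class and 2 without _x_at and _s_at probe sets. It was 0 without any 1 array, with the replicate block, after each scaling and with the robust fit. At both stricter thresholds it could only be 0, since the main fit had 0. The polarity lists held 0 in every setting run. For members and lists alike this must hold wherever the count over all probe sets was 0. The gene count of 3 became 15 with array weights, 5 with the brightest class of each gene, 1 after repeated quantile normalization and 0 with the replicate block, and lay between 0 and 2 without 1 array. MPDZ was among the 3, the 15 and the 5, and not among those called after repeated quantile normalization, with the replicate block or without any 1 array. SDC1 was likewise not called with the block or after that normalization. The fits without 1 array and with the block have fewer residual degrees of freedom, and the cause of the other changes was not tested. The share of probe sets whose groups do not overlap was 14.5%, and 14.8% after either scaling. For the SDC1 probe sets the replicate block left -0.83 (adjusted p = 0.338) and -0.85 (adjusted p = 0.31). Same-numbered arrays share only a number.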
